A study of Mus musculus with 6 samples.

Results

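Integrins, laminins and the proteins that tie laminins into a basement membrane were measured in cortical cells of mouse embryos exposed to phenobarbital or saline through the dam. The set holds the integrin alpha and beta subunits, the laminin alpha, beta and gamma chains, the nidogens Nid1 and Nid2, perlecan (Hspg2), agrin (Agrn) and dystroglycan (Dag1). Probes were chosen by the gene symbol their accession maps to, and proteins that only bind an integrin tail were left out. This gave 42 of the 20145 named genes on the array, read by 58 of 55681 probes. The letters of the rule also take in Itgbl1, which encodes an integrin beta-like protein and no subunit.

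Integrins are surface receptors built from 1 alpha and 1 beta subunit. They grip proteins of the extracellular matrix outside the cell and pass force and signals to talin, kindlin and the actin skeleton inside it. Laminins are cross-shaped trimers of an alpha, a beta and a gamma chain that assemble into the sheet of a basement membrane. Nidogens and perlecan link that sheet to the collagen IV network, and dystroglycan and the integrins anchor cells to it. In the embryonic cortex, radial glia attach their end feet to the basement membrane under the meninges through such receptors, and blood vessels carry a basement membrane of their own.

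The phenobarbital arrays came from C57BL/6N embryos whose dams were given phenobarbital on embryonic days 10 to 11, as 80 mg/kg of an 8 mg/mL solution, with a pair of injections 6 h apart. The control arrays came from embryos of the same strain whose dams received saline. The protocol dates the dissection to day 12, and the sample titles give E12.5. In both groups the cortex was dissociated and the cells plated on poly-L-ornithine and fibronectin, itself a ligand of several integrins, and RNA was taken 4 h later. Dissociation and plating change the contacts under study in both groups, and the labels call the cells neural progenitors without giving a sort. Each group holds 3 arrays, and the labels do not say whether these came from separate litters or cultures. The p-values therefore rest on the spread among these samples alone, which may be technical.

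The scan level differed between the groups, with a 75th percentile of the signal of 1802 to 1853 on the phenobarbital arrays and 1116 to 1286 on the control arrays (two-sided exact permutation p = 0.1, as low as 3 arrays against 3 can give). All values below are log2 signals relative to that percentile of the array, so 0 means a signal equal to it. Phenobarbital replicates 1 to 3 and control replicate 1 shared slide 1, while control replicates 2 and 3 lay on slides 2 and 3, each scanned apart. All 11 radial glia markers tested, Sox2, Pax6 and Nes among them, were measured, and so were markers of every other cell type listed. These are tissue mixtures, in which fewer cells of a type and less RNA per cell cannot be told apart. For 24 of the 37 tested genes of the set, control replicate 2 was the control array farthest from the middle one.

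Of the 42 genes, 37 were tested, having a probe that stood above background throughout the phenobarbital or the control arrays. Of these, 35 were above background on all 6 arrays. Phenobarbital arrays had more Itga3 RNA, 3.43-fold, and less of 10 other members: Itgax, Itga1, Itgb3, Nid2, Itgam, Itga4, Lamc3, Lamb1, Nid1 and Lama1. A gene was called at an adjusted p below 0.05 (limma, Benjamini-Hochberg adjustment over 25304 names). The calls came to 11 of 37 members, or 29.7%, against 16.7% of all names tested. Itgax was above background on no phenobarbital array and entered the test through the control arrays alone, so its direction is not independent of the filter. With genes required to be above background on all 6 arrays, which leaves it out, 1 of 35 members rose and 9 fell, against 18.1% of all names called. One member rose against a background of 6.24% for rises, and 10 fell against 10.5% for falls. The median log2 fold change of the 37 was -0.29, against -0.16 for all names tested, so the members' median lay 0.12 below it. The groups did not overlap for 22 of the 37, against 44.1% of all names tested. Phenobarbital arrays were the lower ones for 17 of these, against 32.4% of all names, and the higher ones for 5, against 11.7%.

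The calls depended on scaling and on single arrays. After quantile normalization 1 member rose and 4 fell, with 11.5% of all names called. With scaling to the median 2 rose and 4 fell, with 9.76% called, and with normexp background correction 3 rose and 14 fell, with 24.7% called. Leaving out any array but control replicate 2 lowered the share of all names called as well as the members' count. Without control replicate 1, no member fell and 3.5% of all names were called, and without phenobarbital replicate 2, none fell and 3.45% were called. At an unadjusted p below 0.05 (limma), 14 of 37 members were lower in the first of these fits, against 18.4% of all names, and 13 of 38 in the second, against 19.8%. Without phenobarbital replicate 1, 2 members fell with 4.31% of all names called. Without control replicate 3, 2 fell with 6.99% called, and without phenobarbital replicate 3, 1 fell with 4.97% called. Without control replicate 2, 3 rose and 9 fell with 17.3% called. Itga3 passed in each of these. With the slide as a fixed block, which sets the phenobarbital arrays against control replicate 1 alone and so has a control arm of 1 array, Itga3 was the 1 member called, with 3.05% of all names called. In that fit 11 of 37 members were lower at an unadjusted p below 0.05, against 13.3% of all names.

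**Figure D1:**
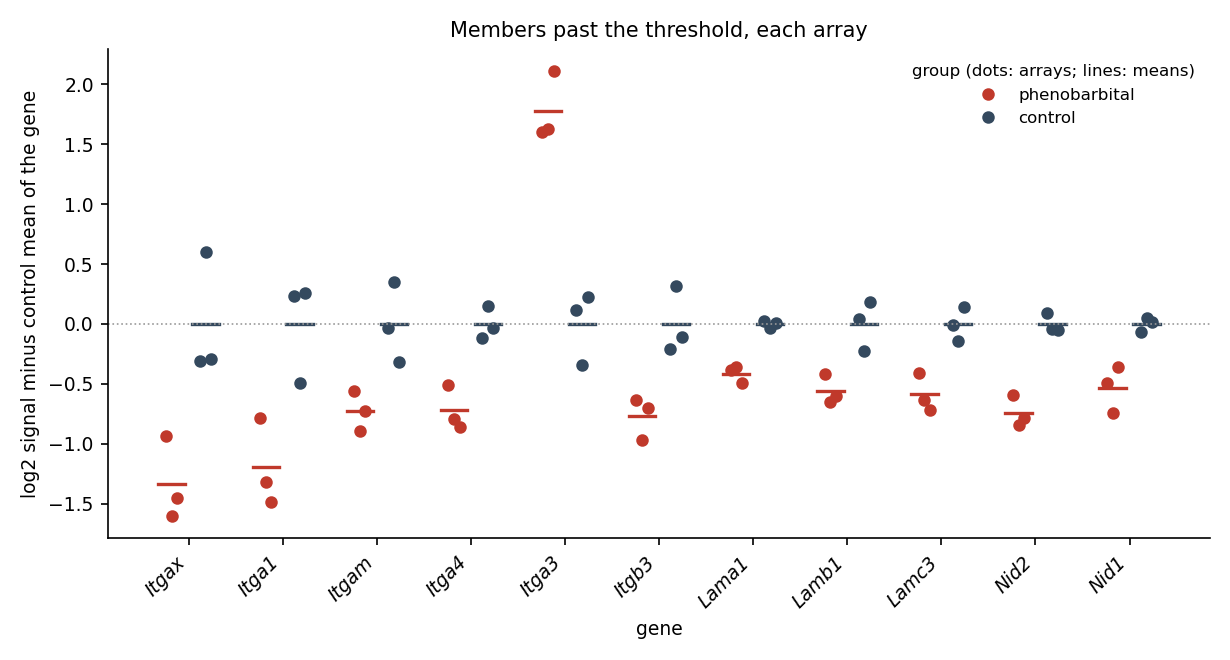
Log2 signal of each of the 11 members past the threshold on each array, minus the control mean of that gene, with phenobarbital arrays (red) left of control arrays (dark) and a line at each group's mean. The groups do not overlap for any of these genes. Itga3 is the 1 gene whose phenobarbital arrays lie above its control arrays.

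The promoter windows of the member that rose and of 3 members that fell are shown as the sequence context of these calls (RefSeq, GRCm38.p6), each 300 bases long with 250 bases before and 50 after the annotated start. RefSeq windows were matched by symbol for 28 of the 42 genes. Motifs were searched on both strands, and capitals mark the GC box bound by Sp1-type factors (GGGCGG, or CCGCCC on the other strand) and the motif of TEAD factors (GGAATG or CATTCC). No marked motif overlaps another.
Itga3 (integrin alpha 3, rose), chr11:95076665-95076964, minus strand, the more upstream of 2 starts: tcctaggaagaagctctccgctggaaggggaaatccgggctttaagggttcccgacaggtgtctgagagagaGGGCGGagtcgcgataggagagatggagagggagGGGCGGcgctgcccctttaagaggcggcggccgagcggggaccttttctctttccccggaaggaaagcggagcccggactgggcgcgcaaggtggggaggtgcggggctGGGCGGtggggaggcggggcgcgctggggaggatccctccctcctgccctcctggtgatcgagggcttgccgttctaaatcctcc
Itga1 (integrin alpha 1, fell), chr13:115101915-115102214, minus strand: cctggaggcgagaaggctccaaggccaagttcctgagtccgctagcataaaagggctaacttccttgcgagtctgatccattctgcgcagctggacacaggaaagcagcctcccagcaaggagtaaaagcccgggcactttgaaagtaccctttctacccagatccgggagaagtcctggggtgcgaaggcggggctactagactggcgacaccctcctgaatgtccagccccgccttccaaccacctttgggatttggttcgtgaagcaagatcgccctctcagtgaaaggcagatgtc
Lamb1 (laminin beta 1, fell), chr12:31265043-31265342, plus strand: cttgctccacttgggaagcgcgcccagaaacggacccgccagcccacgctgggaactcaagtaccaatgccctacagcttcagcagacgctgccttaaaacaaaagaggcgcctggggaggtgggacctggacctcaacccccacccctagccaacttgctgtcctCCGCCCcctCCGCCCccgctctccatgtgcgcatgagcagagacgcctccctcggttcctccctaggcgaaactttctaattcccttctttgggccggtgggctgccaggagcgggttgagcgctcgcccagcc
Nid1 (nidogen 1, fell), chr13:13437352-13437651, plus strand: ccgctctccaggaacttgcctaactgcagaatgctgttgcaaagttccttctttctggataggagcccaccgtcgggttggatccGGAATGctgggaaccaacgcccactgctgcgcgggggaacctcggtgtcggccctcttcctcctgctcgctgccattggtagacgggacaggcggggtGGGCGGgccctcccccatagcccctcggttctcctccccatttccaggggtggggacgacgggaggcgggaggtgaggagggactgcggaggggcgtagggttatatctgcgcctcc

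The Itga3 window holds 3 GC boxes, the Lamb1 window 2, the Nid1 window 1 and the Itga1 window 0. Among all 32851 promoter windows, 35.7% hold a GC box, as do 19 of the 33 windows of the member genes, which belong to 16 of the 28 genes. The Nid1 window alone of these 4 holds the TEAD motif, which 14.7% of all windows and 3 of the 33 windows of the member genes hold. The TATA box (TATAAA or TTTATA) stands in 13.6% of all windows and in 0 of the 33 windows of the member genes. G and C make up 66.7% of the Itga3 window, 56.7% of that of Itga1, 63.7% of that of Lamb1 and 64.7% of that of Nid1. These matches describe the letters and say nothing of what binds there.

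Among 14 tested integrin alpha subunits, 1 rose, 4 fell and 9 did not pass, or 35.7% called against 16.7% of all names. Itga3, which pairs with beta 1 as a receptor for laminins, had values of -0.94, -0.91 and -0.43 on the phenobarbital arrays, against -2.42, -2.88 and -2.31 on the control arrays. Every phenobarbital array lay above every control array by more than either group's spread (-0.76 ± 0.29 and -2.54 ± 0.30, SD, n = 3 each). It rose by 1.78 ± 0.21 (SE) on the log2 scale, or 3.43-fold (95% interval 2.42 to 4.85), with an adjusted p of 0.00653 in limma. Against control replicate 1, which shares the slide, the phenobarbital mean was 1.66 higher. Its adjusted p stayed below 0.05 in the 19 alternative settings, 1 of which, the fixed slide block, has 1 control array, with a log2 fold change of 1.48 to 1.89.

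Itga6 and Itga7, whose receptors also bind laminins, did not pass. Itga6, carried with beta 1 by cortical progenitors, had 5.00, 5.12 and 4.89 on the phenobarbital arrays, against 5.33, 5.36 and 5.29 on the control arrays. The groups did not overlap, and the log2 fold change was -0.32 ± 0.10 (adjusted p = 0.0787). For Itga7 the values were 2.07, 2.25 and 1.99 with phenobarbital and 2.26, 2.37 and 2.22 in controls, with groups that overlapped and a log2 fold change of -0.18 ± 0.11. On each array the log2 signal of Itga3 minus that of Itga6, set to a control mean of 0, was 1.92, 1.83 and 2.55 with phenobarbital and 0.11, -0.38 and 0.27 in controls. This difference does not depend on the scaling of the arrays. Itga3 was higher and Itga6 lower on every phenobarbital array, so the choice of genes fixed the separation of the groups. The exact permutation test could not go below p = 0.1, and its result (two-sided, p = 0.1) was fixed too and adds no support. The pair, and the 3 others given below, were chosen after the values were seen.

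Itga1, a receptor subunit for collagens and laminins, had -2.08, -2.62 and -2.78 on the phenobarbital arrays, against -1.07, -1.79 and -1.04 on the control arrays. All phenobarbital arrays were lower than all control arrays, and Itga1 fell by 1.20 ± 0.27 on the log2 scale (adjusted p = 0.0344). Its other probe had a log2 fold change of -0.29 ± 0.21, which did not pass. Itga4, which with beta 1 or beta 7 binds fibronectin and vascular adhesion molecules, had -1.06, -1.34 and -1.41 with phenobarbital, against -0.67, -0.40 and -0.59 in controls. It fell by 0.72 ± 0.14 (adjusted p = 0.0238) with groups that did not overlap, and its other probe was below background on all arrays.

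The fibronectin receptor subunit Itga5 had -0.22, -0.31 and 0.39 on the phenobarbital arrays, against -1.05, -0.54 and -0.95 on the control arrays. All phenobarbital arrays were higher, but the adjusted p was 0.0602 for a log2 fold change of 0.80 ± 0.23. It passed in 4 of 19 alternative settings, normexp and scaling to the median among them. Itgav, which pairs with several beta subunits and binds RGD-bearing ligands such as vitronectin, had -2.58, -2.76 and -1.53 with phenobarbital and -2.30, -2.08 and -2.27 in controls. Its groups overlapped, phenobarbital replicate 3 stood above the rest, and its probes had -0.07 ± 0.32 and -0.08 ± 0.19. The remaining alpha subunits tested that did not pass were Itga8, Itga9, Itga11, Itgal and Itga2b, with log2 fold changes of -0.34 for Itga8 to 0.11 for Itga2b.

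Among members that mark white blood cells, Itgax and Itgam fell, while Itgb2, Itgal and Itgb7 did not pass. Itgax, the CD11c subunit of myeloid cells, had -5.66, -6.32 and -6.18 on the phenobarbital arrays, against -5.03, -4.12 and -5.02 on the control arrays. None of its phenobarbital values stood well above background, and it was at least 2.29-fold lower there, a bound that carries no test. The fit, which takes the dim values as they are, gave a log2 fold change of -1.33 ± 0.30 (limma, adjusted p = 0.034). Itgam, the CD11b subunit of microglia and macrophages, had 4.56, 4.23 and 4.39 with phenobarbital, against 5.09, 5.47 and 4.80 in controls. The tested probe, with a control mean of 5.12, fell by 0.73 ± 0.19 (limma, adjusted p = 0.0487). The dimmer probes, with control means of only -4.20 and -4.26, had -0.28 ± 0.15 and 0.00 ± 0.25 and did not pass. The fall therefore rests on the bright probe alone, and which probe reads the transcript was not tested. Itgb2, their shared beta subunit, had -2.07, -3.10 and -2.83 with phenobarbital and -2.79, -2.55 and -2.70 in controls, with overlapping groups and a log2 fold change of 0.02 ± 0.26. Of 10 tested microglia and macrophage markers, 4 fell, 1 rose and 5 did not pass, or 50% called against 16.7% of all names. Their summed signal was 9.90 to 12.6 on the phenobarbital arrays and 10.4 to 12.4 on the control arrays, in multiples of the 75th percentile. Csf1r alone gave 6.02 to 7.82 of that sum with phenobarbital and 4.14 to 6.28 in controls. The other 9 markers summed to 3.71 to 5.01 with phenobarbital and 5.51 to 6.81 in controls, and the median log2 fold change of the 10 was -0.46. The part of these cells in the values of Itgax and Itgam was not tested.

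Of 7 tested beta subunits, Itgb3 alone passed and fell, and 6 did not pass, or 14.3% called against 16.7% of all names. Itgb3, the partner of Itgav and of the platelet subunit Itga2b, had 0.97, 0.64 and 0.90 on the phenobarbital arrays, against 1.39, 1.92 and 1.49 on the control arrays. All phenobarbital arrays were lower, and Itgb3 fell by 0.77 ± 0.17 (limma, adjusted p = 0.0352). Its other probe had -0.84 ± 0.26 (adjusted p = 0.0741). Itga2b, which defines megakaryocytes, had -3.06, -3.24 and -3.03 with phenobarbital and -2.58, -4.35 and -2.75 in controls, and control replicate 2 alone was below the phenobarbital arrays. Without that array its log2 fold change lay below 0, and over all alternatives it ran from -0.54 to 0.44. Among 11 tested megakaryocyte and platelet markers 2 fell, Gp6 and Nfe2, and 9 did not pass. This is 18.2% called, near the 16.7% of all names. Their summed signal was 8.93 to 11.9 on the phenobarbital arrays and 15.3 to 27.5 on the control arrays. Pf4, by far the brightest of them, carried most of it and did not pass (limma, adjusted p = 0.068). On the log2 scale it had 3.09, 2.63 and 2.95 with phenobarbital, against 3.60, 4.41 and 3.41 in controls. Of 11 red blood cell markers 5 fell, or 45.5% called against 16.7% of all names. Their summed signal was 701 to 791 with phenobarbital and 1063 to 1735 in controls. The part of blood cells in the Itgb3 value was not tested.

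Itgb1, the beta subunit shared by most matrix receptors of neural progenitors, had 1.252, 1.004 and 1.960 on the phenobarbital arrays, against 1.019, 1.108 and 0.852 on the control arrays. The groups overlapped, and phenobarbital replicate 3 stood above the others. The log2 fold change was 0.41 ± 0.25 with a 95% interval of -0.19 to 1.01 (adjusted p = 0.279), and 0.08 ± 0.18 on the other probe. Itgb5, a vitronectin receptor subunit, had 0.83, 0.97 and 0.92 with phenobarbital, against 1.26, 1.67 and 1.13 in controls, a log2 fold change of -0.45 ± 0.16 (adjusted p = 0.0994). Its groups did not overlap, but it passed in no alternative. Itgb8, which with Itgav activates latent TGF-beta in neuroepithelium, had -4.42, -4.92 and -3.80 with phenobarbital and -4.81, -4.64 and -5.87 in controls. It was above background on 2 of 3 control arrays, its groups overlapped, and its log2 fold change of 0.73 ± 0.41 did not pass. Itgb4, known from epithelial hemidesmosomes, and Itgb7, a lymphocyte subunit, had -0.08 ± 0.18 and -0.48 ± 0.17 and did not pass.

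The 5 genes not tested were Itga2, Itgad, Itgb2l, Itgb6 and Itgbl1. Itga2 was above background on 2 arrays of each group, and the other 4 on no array. Itgb6 and Itgbl1 had 2 probes each, and all were below background.

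**Figure D2:**
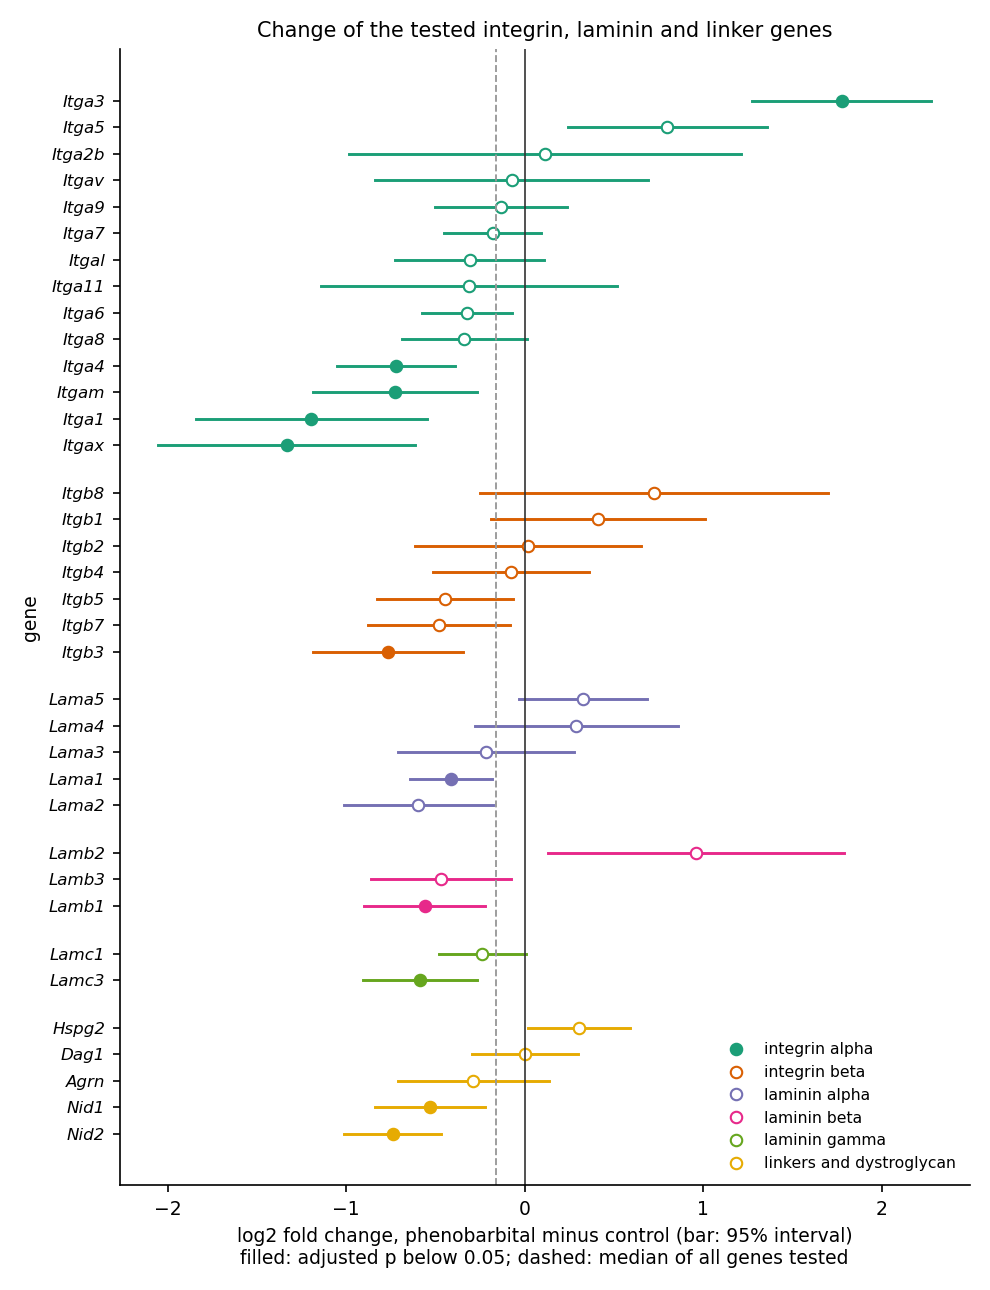
Log2 fold change, phenobarbital minus control, of tested genes by role, with 95% intervals from the fit. Filled points passed at an adjusted p below 0.05, and the dashed line is the median of all names tested, -0.16. Itga3 stands alone on the right among the filled points, and Lamb2, Itga5 and Itgb8 lie on the right unfilled.

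Lama1, Lamb1 and Lamc3 were the laminin chains that fell. Of 11 chains tested, 3 passed and all 3 fell, and 8 did not pass. This is 27.3% called, against 16.7% of all names, of which 10.5% fell. The chains' median was -0.27, against -0.16 for all names. The chains of laminin-111, the trimer of early embryonic basement membranes, are Lama1, Lamb1 and Lamc1. Lama1 had 2.38, 2.41 and 2.28 on the phenobarbital arrays, against 2.79, 2.73 and 2.78 on the control arrays, and fell by 0.41 ± 0.10 (limma, adjusted p = 0.0365). Lamb1, the beta chain of most embryonic laminins, had 3.55, 3.32 and 3.37 with phenobarbital, against 4.01, 3.75 and 4.15 in controls, and fell by 0.56 ± 0.14 (adjusted p = 0.0435). The groups did not overlap for either. Lamc1, the gamma chain they share, had 3.85, 3.76 and 3.76 with phenobarbital, against 4.11, 3.93 and 4.04 in controls, a log2 fold change of -0.24 ± 0.10 (adjusted p = 0.15). Its groups did not overlap but it did not pass, and the change lay close to the median of all names.

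Lamc3, a gamma chain found in cortical and retinal laminins, had -0.64, -0.87 and -0.95 on the phenobarbital arrays, against -0.24, -0.37 and -0.09 on the control arrays. It fell by 0.59 ± 0.13 (adjusted p = 0.0344), with groups that did not overlap. Lama2, the alpha chain of laminins in muscle and around vessels, had -1.31, -1.85 and -1.71 with phenobarbital, against -0.99, -1.21 and -0.87 in controls. All phenobarbital arrays were lower, with a log2 fold change of -0.60 ± 0.17 on the tested probe and -0.54 ± 0.19 on the other, and neither passed (adjusted p = 0.0618 and 0.0974). The epithelial chains Lama3 and Lamb3 had -0.22 ± 0.20 and -0.47 ± 0.16 and did not pass.

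Lamb2, Lama5 and Lama4 had positive log2 fold changes that did not pass. Lamb2, the beta chain that takes the place of Lamb1 in synaptic and vascular laminins, had 0.66, 0.69 and 0.68 on the phenobarbital arrays, against 0.10, -1.13 and 0.18 on the control arrays. The phenobarbital arrays lay within a narrow range above all controls, and control replicate 2 was far below the rest. The log2 fold change was 0.96 ± 0.35 (limma, adjusted p = 0.101), and without control replicate 2 it was 0.54 and passed (adjusted p = 0.0246). Lama5, the widespread alpha chain of later basement membranes, had 0.97, 0.84 and 0.84 with phenobarbital, against 0.83, 0.34 and 0.49 in controls, a log2 fold change of 0.33 ± 0.15 with groups that touched without overlap. Lama4, a chain of endothelial laminins, had -0.05, -0.44 and 0.46 with phenobarbital and -0.23, -0.18 and -0.49 in controls, with overlapping groups and 0.29 ± 0.24.

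Chains that can take each other's place in a trimer were set against each other within each array. Lamb2 minus Lamb1, with the control mean at 0, was 1.36, 1.63 and 1.57 on the phenobarbital arrays, against 0.34, -0.63 and 0.28 on the control arrays, a shift of 1.52. Lama5 minus Lama1 was 0.80, 0.64 and 0.78 with phenobarbital, against 0.25, -0.18 and -0.08 in controls, a shift of 0.74. In both, every phenobarbital array lay above every control array, whatever the scaling between arrays. The choice of genes fixed this, since Lamb2 and Lama5 were higher and Lamb1 and Lama1 lower on every phenobarbital array. Each had p = 0.1 (exact permutation test, two-sided), the smallest the design allows, so neither could pass. That p also followed from the choice of genes and adds no support.

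Among the linkers of the laminin sheet and dystroglycan, both nidogens fell and the other 3 genes did not pass. Nid2 had 0.23, -0.02 and 0.03 on the phenobarbital arrays, against 0.91, 0.77 and 0.77 on the control arrays, and fell by 0.74 ± 0.11, or 1.67-fold (95% interval 1.38 to 2.02), with an adjusted p of 0.0134 in limma. It passed in 15 of 19 alternatives, and against control replicate 1 the difference was -0.83. Nid1 had 2.28, 2.03 and 2.41 with phenobarbital, against 2.71, 2.82 and 2.78 in controls, and fell by 0.53 ± 0.13 (adjusted p = 0.0399). Its dimmer probes had -0.47 ± 0.36 and 0.34 ± 0.47 and did not pass, and with the mean of its probes the call ended. The groups did not overlap for Nid1 or Nid2.

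Perlecan, agrin and dystroglycan did not pass. Hspg2, the perlecan core protein, had 1.27, 1.13 and 1.43 on the phenobarbital arrays, against 1.07, 0.96 and 0.89 on the control arrays. All phenobarbital arrays were higher, with 0.31 ± 0.12 (limma, adjusted p = 0.121) and 0.25 ± 0.12 on the other probe. Hspg2 minus Nid2, again within arrays, was 0.89 to 1.24 with phenobarbital, against -0.03 to 0.03 in controls (exact permutation test, p = 0.1). As Hspg2 was higher and Nid2 lower on every phenobarbital array, this separation and its p were fixed by the choice of genes. Agrn, the heparan sulfate proteoglycan agrin, had 5.48, 5.63 and 5.09 with phenobarbital and 5.77, 5.47 and 5.82 in controls, with overlapping groups and -0.29 ± 0.18. Dag1, which encodes both dystroglycan subunits, had 2.03, 2.06 and 1.84 with phenobarbital and 2.10, 2.01 and 1.81 in controls, with overlapping groups. Its log2 fold change was 0.00 ± 0.12 with a 95% interval of -0.29 to 0.30.

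Some markers of cells that carry or border basement membranes passed the test too, against 16.7% of all names. Of 13 tested markers of mural cells and meninges, 6 fell, Lum and Foxc1 with the smallest p, 1 rose and 6 did not pass. Their summed signal was 74.1 to 76.1 on the phenobarbital arrays and 93.8 to 101.2 on the control arrays. Of 12 endothelial markers, 4 fell, led by Egfl7 and Sox17, and 8 did not pass. Among those 8, Pecam1, Tek and Tie1 had log2 fold changes of 0.71, 0.71 and 0.28. The endothelial markers, of which Egfl7 and Kdr were the brightest, had summed signals of 51.7 to 61.5 on the phenobarbital arrays and 85.7 to 91.3 on the control arrays. The radial glia markers summed to 290.3 to 326 with phenobarbital and 371 to 395 in controls, with 1 rise, 2 falls and 8 that did not pass. Their median log2 fold change, -0.15, lay close to the -0.16 of all names, so the lower sum does not describe the typical marker. The neuronal markers summed to 192 to 227 with phenobarbital and 288 to 326 in controls, with 1 rise and 5 falls of 12. Medians were -0.36 for the neuronal, -0.48 for the endothelial and -0.58 for the mural and meningeal markers. The choroid plexus markers went the other way, at 12.3 to 23.8 with phenobarbital and 1.92 to 4.22 in controls, and 8 of 9 tested markers rose. The part of any of these cell types in the laminin, nidogen or integrin values was not tested.

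**Figure D3:**
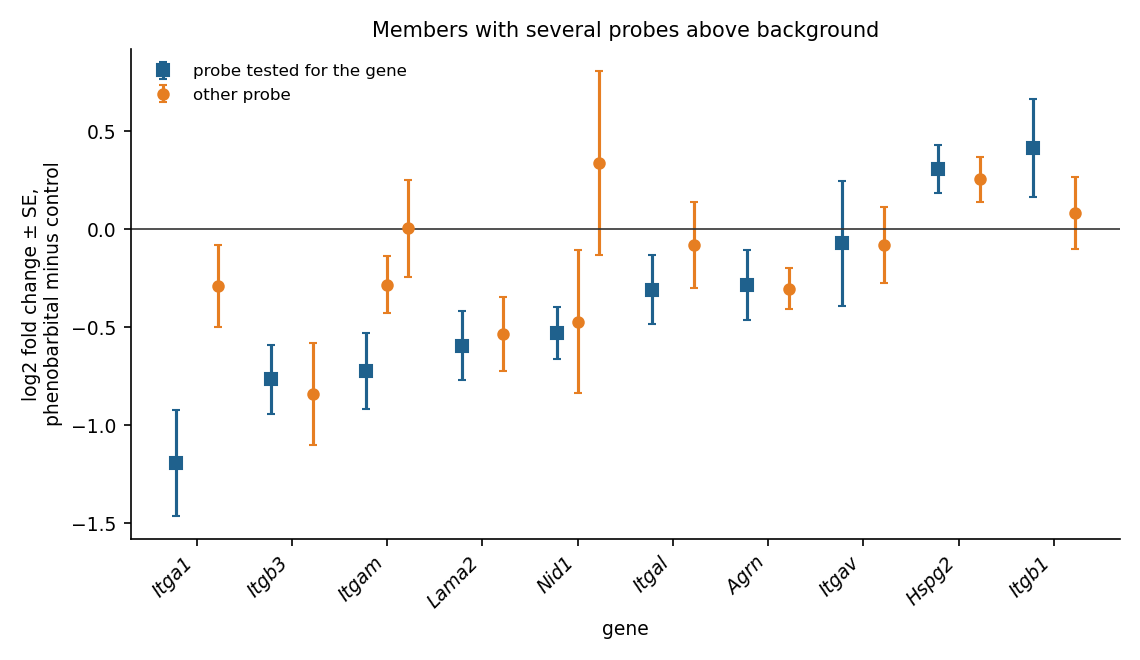
Log2 fold change ± SE, phenobarbital minus control, for the 10 members with several probes above background, with the tested probe as a square and the others as circles. The probes of Itgb3, Lama2, Agrn, Itgav and Hspg2 lie close together. Those of Itga1, Itgam and Nid1 differ.

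Probes of a gene differed by more than the error of either in a few cases. With every probe tested on its own, 15.7% of the 34673 probes passed, and 1 member rose and 9 fell on at least 1 probe. Itgam was the member lost, at an adjusted p of 0.051. The plot of members with several probes shows the tested probes of Itga1 and Itgam below their other probes by more than the SE of either.

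The machinery inside the cell to which integrins couple showed few calls. Of 29 tested talin, kindlin and focal adhesion genes, 1 passed and rose and 28 did not pass, a share of 3.45% against the background of 16.7%. These counts take the brightest probe of each gene. For Parva the tested probe had -0.19, while a dimmer probe rose by 1.05 ± 0.28 (limma over all probes, adjusted p = 0.049) and another had -0.02. Parva was named after its values were seen. Fermt3, the kindlin of blood cells, had -2.83, -3.15 and -2.73 on the phenobarbital arrays, against -3.57, -3.93 and -3.47 on the control arrays, and rose by 0.75 ± 0.17 (limma, adjusted p = 0.0369). Talin 1 (Tln1) had a log2 fold change of -0.13 ± 0.10, kindlin 2 (Fermt2) of -0.09 ± 0.17, focal adhesion kinase (Ptk2) of -0.26 ± 0.10 and integrin-linked kinase (Ilk) of 0.50 ± 0.16, and none of these passed. The list's median was -0.14, against -0.16 for all names.

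Among 20 tested matrix ligands of integrins other than laminins, 4 fell, 1 rose and 15 did not pass. This is 25% called, against 16.7% of all names, of which 10.5% fell. Thrombospondin 1 (Thbs1), an adhesive glycoprotein, had 1.57, 1.54 and 1.67 on the phenobarbital arrays, against 2.73, 2.56 and 2.45 on the control arrays, and fell by 0.98 ± 0.11 (limma, adjusted p = 0.00648). Ccn2 and Ccn1, matricellular proteins that bind Itgav receptors, fell by 0.94 ± 0.22 and 0.60 ± 0.11, and Tgfbi, a TGF-beta-induced adhesion protein, by 0.78 ± 0.12. The groups did not overlap for any of the 4. Reln, the reelin gene of Cajal-Retzius cells, rose by 1.28 ± 0.27. Only 2 of its 3 control values cleared background, so the phenobarbital group alone brought Reln into the test. The direction of its call is thus not independent of that filter. Where every array had to clear background, 0 genes of this list rose. Ccn2, the fifth by p, was named after its value was seen. Fibronectin (Fn1), tenascin C (Tnc) and vitronectin (Vtn) had -0.22 ± 0.12, -0.26 ± 0.22 and -0.81 ± 0.26 and did not pass. The median of the list was -0.32. The list had 6 falls without control replicate 2, with 17.3% of all names called, and 3 without control replicate 3, with 6.99% called. It had 2 without phenobarbital replicate 1 or 3, with 4.31% and 4.97% called. It had 1 without phenobarbital replicate 2 or control replicate 1, with 3.45% and 3.5% called. After quantile normalization the list had 2 falls, with 11.5% called. With no filter on dim probes it had 2, with 3.99% called, and with the replicate number as a block 0, with 1.17% called.

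Of 19 basement membrane collagens and binding proteins, 1 rose and 18 did not pass, or 5.26% called against 16.7% of all names. These counts take the brightest probe of each gene. For Fbln1 that probe had -0.69, while a dimmer probe rose by 1.24 ± 0.11 (limma over all probes, adjusted p = 0.0028). The tested Col4a4 probe had -0.13. A dimmer one, above background on only 1 control array, rose by 1.26 ± 0.23 (limma, adjusted p = 0.0205). Other dimmer probes tested did not pass, and both genes were named after their values were seen. The collagen IV chains that nidogens bind, Col4a1 and Col4a2, had log2 fold changes of 0.16 ± 0.18 and -0.29 ± 0.15. Smoc1, a matrix protein of the SPARC family, was below background on every control array and at least 2.96-fold higher with phenobarbital, a bound that carries no test. Its log2 fold change in the fit was 2.79 ± 0.65 (limma, adjusted p = 0.0365). It entered the test through the phenobarbital arrays alone.

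Pomt1, Pomt2 and Rxylt1, which take part in the glycosylation of dystroglycan, rose with phenobarbital, while Dag1 itself had a log2 fold change of 0.00. Of 23 tested genes of this pathway and of the dystrophin complex, 5 rose, 1 fell and 17 did not pass, a share of 26.1% against 16.7% of all names, and the list's median was 0.11. Pomt1 and Pomt2 form the O-mannosyltransferase that starts the laminin-binding sugar chain of alpha-dystroglycan. Pomt1 had 0.21, 0.20 and 0.13 on the phenobarbital arrays, against -0.55, -0.65 and -0.56 on the control arrays, and rose by 0.76 ± 0.09 (limma, adjusted p = 0.00747). Pomt2 had -1.08, -0.89 and -0.89 with phenobarbital, against -2.31, -1.89 and -2.60 in controls, and rose by 1.31 ± 0.19 (adjusted p = 0.0115). All phenobarbital arrays were above all control arrays for both genes.

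Rxylt1, which adds xylose to the chain, had -1.77, -1.83 and -1.09 on the phenobarbital arrays, against -2.66, -2.96 and -2.41 on the control arrays. The groups did not overlap, and it rose by 1.11 ± 0.24 (limma, adjusted p = 0.0319). Sspn (sarcospan), a membrane protein of the dystrophin complex, fell by 0.48 ± 0.13 (adjusted p = 0.0485) and was named after its value was seen. Over the 19 alternatives Pomt1 passed in 17, Pomt2 in 15 and Rxylt1 in 11. With the slide as a fixed block, where control replicate 1 is the 1 control array compared, Pomt1 and Rxylt1 did not pass, and with the replicate number as a block none of the 3 passed. The list had 7 rises without control replicate 2, with 17.3% of all names called. It had 3 without phenobarbital replicate 1 or control replicate 3, with 4.31% and 6.99% called. It had 2 without any other array, with 3.45% to 4.97% called.

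**Figure D4:**
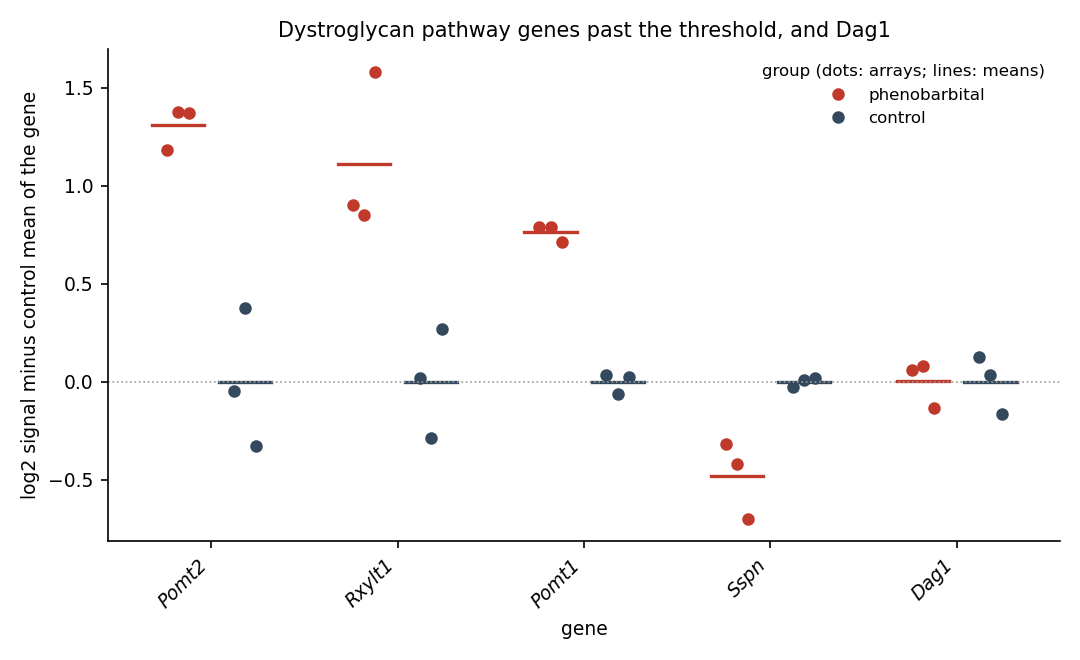
Log2 signal on each array minus the control mean of the gene, for 4 dystroglycan pathway genes past the threshold and for Dag1, with phenobarbital arrays (red) left of control arrays (dark). Pomt2, Rxylt1 and Pomt1 lie above their controls on every phenobarbital array, Sspn lies below, and the groups of Dag1 overlap.

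**Figure D5:**
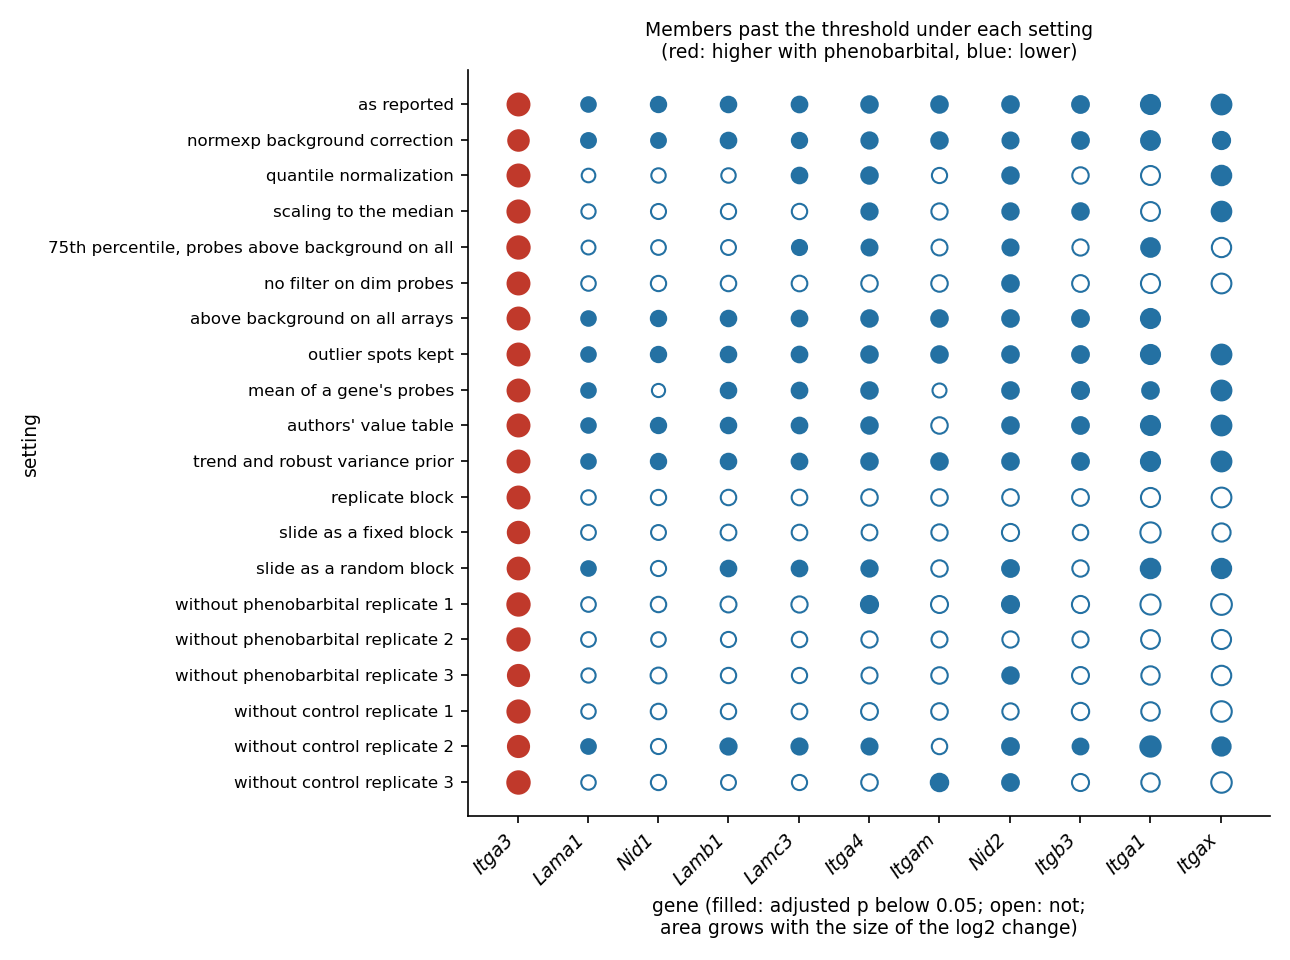
The 11 members past the threshold under the fit as reported (top row) and 19 alternative settings, as filled points where the adjusted p stayed below 0.05 and open points where it did not, red for a positive and blue for a negative log2 fold change. The Itga3 column is filled throughout, Nid2 is filled in 15 of 19 alternatives, and the colour does not change in any column. Itgax has no point where probes had to be above background on all arrays.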

How the data were processed

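RNA of 6 samples, 3 per group, was labelled with Cy3 from 0.2 µg and hybridised to 1-colour Agilent arrays, per the labels' protocols. The authors scanned the arrays with Agilent Feature Extraction 10.7.3.1, per the file headers. Their deposited processed signals are linear intensity values that the software had corrected for background and spatial trend. The authors' deposited value table holds log2 values, whose differences between arrays equalled those of the scanner values to within 1.9e-06 for 99% of probes. How each probe of that table was centred is not known. Its column medians were -0.02, -0.09 and -0.08 for phenobarbital replicates 1 to 3 and 0.08, 0.10 and 0.09 for control replicates 1 to 3.

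Here log2 processed signals were reduced by each array's 75th percentile over spots that were neither controls nor outliers. Replicate spots were averaged, and accessions were named through the RefSeq gene table (GRCm38.p6, names only), which matched 26582 of 55681 probes. A probe was kept (34673 were) where all arrays of either group had it well above background and each group had at least 2 values. The brightest probe per name was tested (25304 names, 15181 of them symbols) with limma 3.58.1 in R 4.3.3, two-sided, without covariates. Log2 fold changes subtract control from phenobarbital and carry the SE of the fit. No spot was saturated, and no pair of arrays was a duplicate. For a bound, the dim group's signal on each array was raised to that of the dimmest probe well above background, where lower, before its mean was set against the bright group's. Normexp was run on median spot signals, with an offset of 50. The fit was tested on simulated data. Precision is limited by how few arrays there are.

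The members, the pathway and marker lists and the settings were chosen with earlier results of these data known. Named were all members past the threshold or with a bound, a fixed set of laminins, linkers and progenitor receptors whatever their values, members whose probes disagree, and up to 4 called genes per pathway list. Some genes of these lists were counted but are not reported here by name.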

Additional observations from a re-analysis of the deposited data

How the results depend on the processing

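No member turned its direction with a call under any of 19 alternatives. The 11 called members gave 208 values under them, of which 108 stayed past the threshold and 100 did not. Values of the other members crossed it 13 times. Fewer members fell under other scalings: 4 after quantile normalization, 4 with scaling to the median and 4 with the 75th percentile over probes above background on all arrays. In the fit over all names, 2470 changed with scaling to the median and 2701 with that percentile, against 4234 as reported. The share of rises among these calls was 37.3% as reported, 54.6% after quantile normalization, 58.4% with scaling to the median, 59.5% with the percentile over probes above background and 24.4% with normexp. With normexp 3 members rose, with scaling to the median 2 and with a trend and robust variance prior 2. With no filter on dim probes 1 member fell and 1486 names changed. With the slide as a fixed block, resting on control replicate 1, 0 members fell, 11 at an unadjusted p below 0.05 (limma) against 13.3% of all names, and 771 names changed. Same-numbered arrays deviated from their group means with correlations of 0.08, -0.16 and -0.35 across genes, so the numbers were not taken as pairs. With the replicate block 0 fell, 13 at an unadjusted p below 0.05 against 17.9% of all names, and 295 names changed. Leaving out each array in turn gave 1 to 3 rises, 0 to 9 falls and 881 to 4406 changed names. The causes were not tested, beyond the lower number of arrays in the last. The signal over background limits Itgax, Itgb8 and the 5 untested genes.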
